A study of Homo sapiens with 8 samples.

Results

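The SR splicing factor genes SRSF1, SRSF2, SRSF3, SRSF4, SRSF5, SRSF6, SRSF7, SRSF9, SRSF10 and SRSF11 were examined in HCT116 cells, a human colorectal carcinoma line, with and without exposure to Fusobacterium nucleatum (F. nucleatum), an anaerobic bacterium that is enriched in colorectal tumours. The genes were chosen by symbol, with earlier results of these data known, and all 10 were among the 19475 genes of the expression table. Peaks of N6-methyladenosine (m6A), the commonest internal methylation of mRNA, were taken where the peak carried one of these symbols, which gave 16 of the 22001 regions in the series. The Control cells received PBS and the treated cells, labelled FUSO, received F. nucleatum, for 2 h in both cases. Both groups were the same unmodified line, so a single line stands for colorectal cancer cells here. For m6A, poly(A) RNA was fragmented and pulled down with an m6A antibody (IP), and the unselected fragments served as input. The 8 samples were 2 biological replicates of input and of IP in each group. The design asks whether the bacterium changes the m6A peaks and the mRNA of these genes.

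SR proteins carry RNA recognition motifs and a tail rich in arginine and serine. They bind enhancer sequences in exons and help the early spliceosome to find the splice sites, and several of them also accompany mRNA out of the nucleus. Kinases of the SRPK and CLK families phosphorylate the tail and so set where the proteins are and how active they are. SR genes are also known for limiting their own output, often through poison exons, which bring in an early stop codon and send the mRNA to nonsense-mediated decay (NMD). The mark is linked to the family through YTHDC1, a nuclear m6A reader that binds SRSF3 and SRSF10.

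The absolute depth of the libraries was unknown, and the depth of the IP libraries could not be estimated. Relative to the input of Control 1, the input depth was estimated as 1.11 for Control 2, 1.23 for FUSO 1 and 0.91 for FUSO 2. These estimates rest on 5 of the 6 pairs of libraries, as the direct pair of the Control libraries gave the opposite order and was left out, so the order of the Control libraries is uncertain. The cells expressed the epithelial genes EPCAM (162 to 184 FPKM, fragments scaled by transcript length and library total), KRT8, KRT18 and CDH1, while the enterocyte and colon genes VIL1, CDX1 and LGALS4 were at or near 0 (at most 0.251 FPKM). The summed level of the 7 epithelial markers was 3940 and 3650 FPKM in Control and 3210 and 3490 FPKM in FUSO. Most of this sum was KRT8 and KRT18, which were lower in both FUSO libraries than in both Control libraries. EPCAM and CDH1 were higher in both. Of all tested genes, 21.1% were lower and 26.1% higher in this way, so the sum does not stand for the markers as a group. Of 6 markers of leukocytes, endothelium and fibroblasts, only COL1A1 was above 0.072 FPKM, at 3.78 to 5.72 FPKM. As these are bulk samples, less mRNA per cell and fewer cells that express a gene cannot be told apart.

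All 10 SR genes carried at least 1 m6A peak in some list, as did 83.9% of genes that averaged 1 FPKM or more and 67.8% of those that averaged 100 FPKM or more. The peaks of most of them were found with and without the bacterium. Of the 16 regions, 9 were present in all 4 peak lists (51.5% of all regions in the series), 1 was present in both Control lists and in neither FUSO list (called lost, 2.64% of all regions), and 1 was present in both FUSO lists and in neither Control list (called gained, 2.38% of all regions). The lost region lay in SRSF9 and the gained region in SRSF1. The other 5 regions were found in 1 or 3 lists. A region is the union of peaks that touch on the same strand, and each list came from 1 IP library and its input. Absence from a list means that no peak was called there, since the lists hold no value for other positions. The counts depended on single lists because the rule asks for every list. The lost count was 2 without Control 1, without Control 2 or without FUSO 1, and the gained count was 2 without FUSO 1 or without FUSO 2. Over the whole series, the lost count rose from 581 of 22001 regions to 2403 of 21295 without Control 1. It was 1836 of 21015 without Control 2 and 1449 of 20918 without FUSO 1. The gained count of the series rose from 524 to 1727 without FUSO 1 and to 2403 without FUSO 2.

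**Figure D1:**
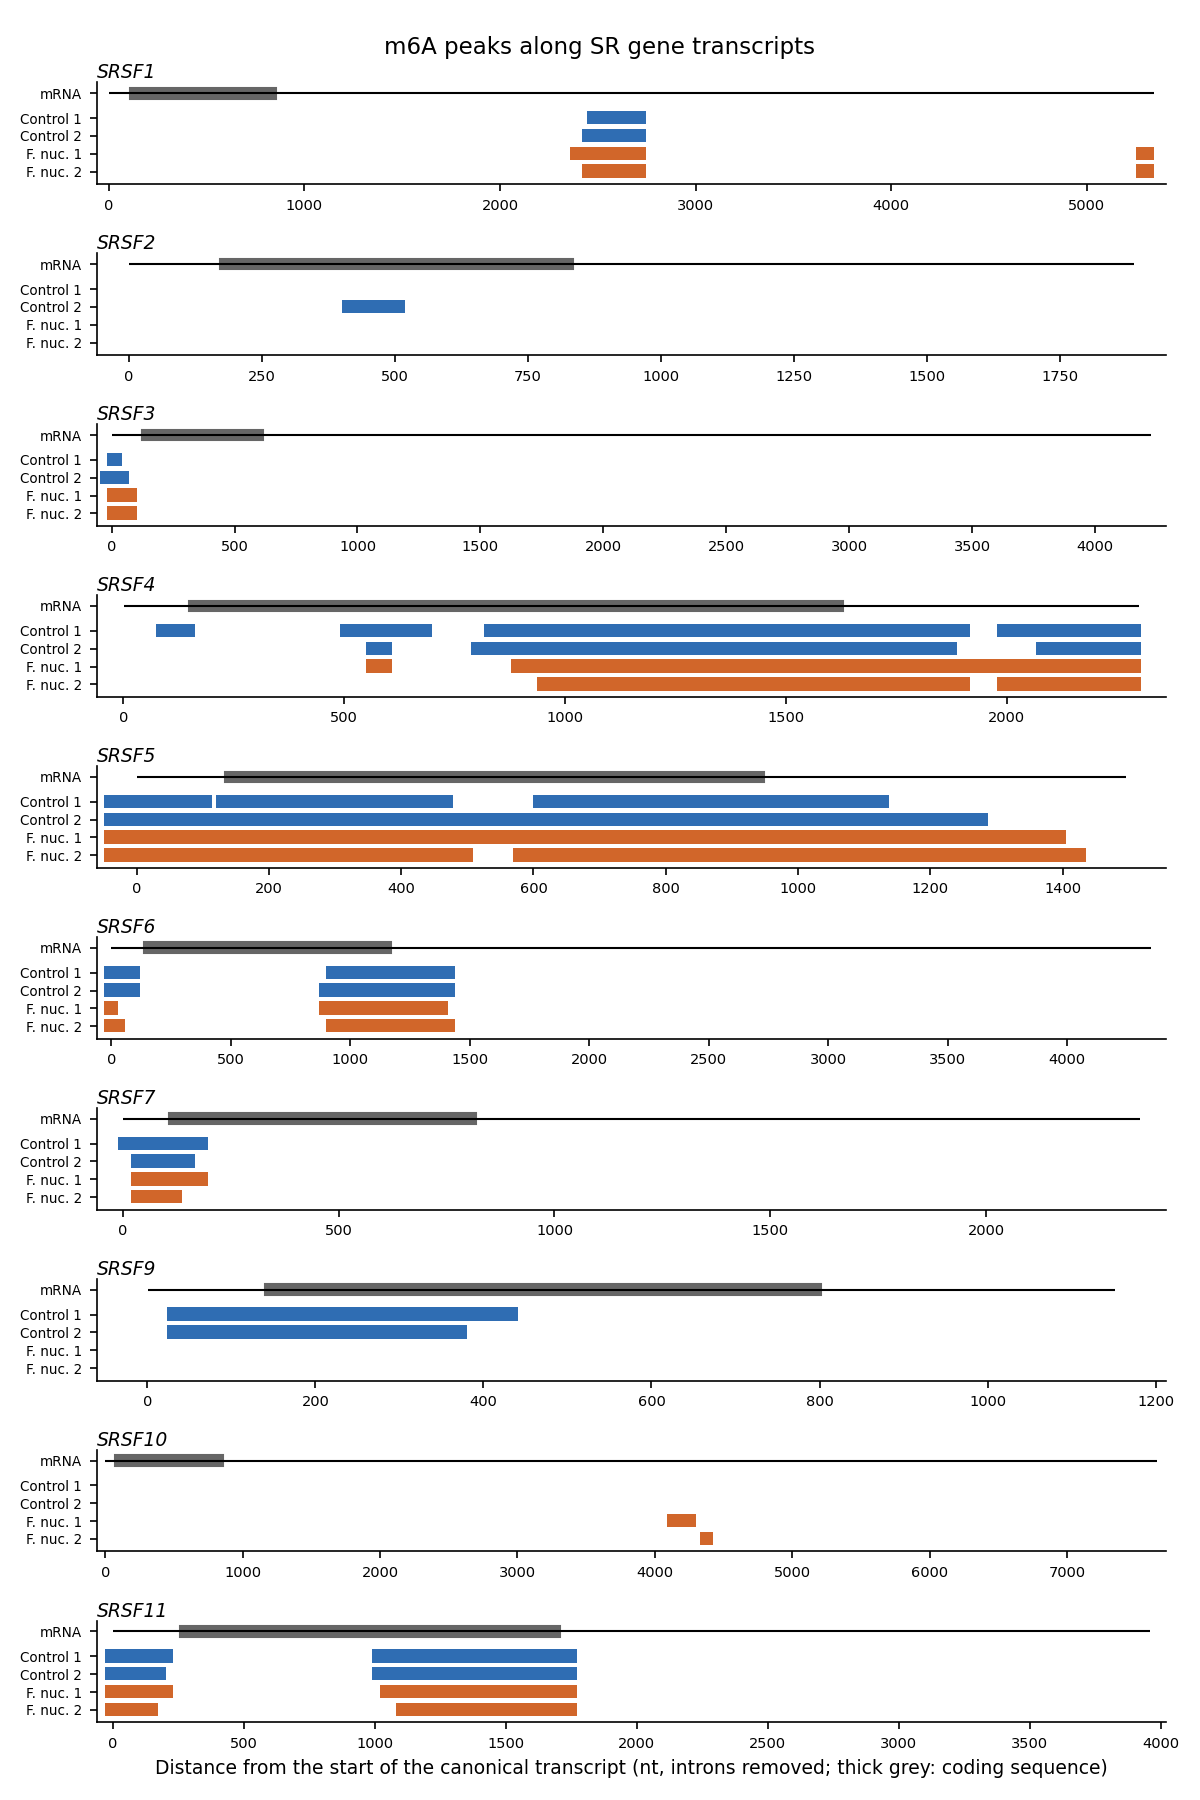
Position of the m6A peaks along the canonical transcript of each SR gene, in nt from the transcript start with introns removed; the thick grey bar is the coding sequence, blue bars are peaks of the 2 Control lists and orange bars those of the 2 F. nucleatum (F. nuc., FUSO) lists. SRSF9 has peaks in the Control lists only, SRSF10 in the F. nucleatum lists only, and SRSF5 is covered along most of its length in all 4.

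The lost region of SRSF9, which encodes a small SR protein, began in the 5′UTR and ran through the first coding exon into exon 2 (GRCh37, the build also called hg19, chr12:120903477-120907528, minus strand, 2 exon blocks). It measured 418 nt in Control 1 and 358 nt in Control 2. The only value that the lists give per peak was read as the p-value of the peak caller before correction, and it was 1.6e-39 in Control 1 and 1.6e-28 in Control 2. These p-values were lower than those of several regions that all 4 lists held, such as the 5′UTR regions of SRSF3 and SRSF11 described below. They were higher than those of others, such as the SRSF5 region. A peak p-value depends on the depth of the IP library, which is unknown, so this order is a description. The GC content of the region was 68.2%, and the median was 61.7% over the lost regions of the series and 51.5% over all regions. No other peak was called in SRSF9, so in the FUSO lists the gene had none. The region held 7 copies of GGAC, the core of the usual m6A motif, and 86.8% of regions of like length in the series held at least 1. Its coding part in exon 1 (chr12:120907225-120907412, minus strand, 188 nt) is shown because it holds 4 of these copies, which stand in capitals in the GRCh37 sequence.
SRSF9, exon 1 coding part: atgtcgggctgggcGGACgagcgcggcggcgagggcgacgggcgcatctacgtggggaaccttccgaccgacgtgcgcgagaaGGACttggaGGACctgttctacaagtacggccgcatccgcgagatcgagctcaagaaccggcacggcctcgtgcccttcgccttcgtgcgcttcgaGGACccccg

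SRSF9 mRNA was 132 and 131 FPKM in Control and 130 and 143 FPKM in FUSO. The groups overlapped, and the log2 fold change was 0.05 (SE 0.0639, limma adjusted p 0.725). The 95% interval of the log2 fold change ran from -0.11 to 0.21, so the difference in SRSF9 mRNA was within the spread of the libraries. Its sign turned without FUSO 2, to -0.013. The last exon of SRSF9 overlaps GATC on the other strand over 491 nt, outside the lost region, and whether the counting used strand is not given in the sources used here.

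SRSF1, one of the first SR proteins described, had 2 regions, both in the 3′UTR of exon 4. The gained region was the last 91 nt of the transcript (chr17:56078280-56078370, minus strand). Its p-values of 0.00078 in FUSO 1 and 0.0036 in FUSO 2 were much weaker than those of the lost SRSF9 region, and it was no longer counted when peaks needed a p of at most 1e-05. It held no GGAC, and 36.4% of regions of like length in the series held one. It held 4 matches to the wider consensus DRACH (A, G or T, then A or G, then AC, then A, C or T). The other region (chr17:56080877-56081265, 389 nt) was present in all 4 lists. The Control lists gave it p-values of 1.3e-30 and 4e-40, and the FUSO lists 2e-50 and 7.9e-46. Both FUSO values were lower than both Control values. Motif sites of both regions are shown, with GGAC or the DRACH match nearest the middle of the region in capitals, at chr17:56081054-56081078 and chr17:56078317-56078341.
SRSF1, region in all lists: agcaaagcgaGGACctggagataaa
SRSF1, gained region: aaaactacgaAAACAaaagattttc

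Where all 4 lists held a region, its p-values in both groups could be set side by side. Of the 9 shared regions, 2 had lower p-values in both FUSO lists than in both Control lists, against 15.7% of all shared regions in the series. They were the SRSF1 region above and the stop codon region of SRSF6. Another 2 had higher p-values in both FUSO lists (18.9% of all shared regions), the stop codon region of SRSF4 and the 5′UTR region of SRSF6. The remaining 5 overlapped between groups. A p-value depends on the depth of the IP library, which is unknown, so these counts are a description. Without Control 2, 4 regions instead of 2 had higher p-values in FUSO and 3 instead of 2 had lower ones. Over the whole series, 3331 of 11869 shared regions then had higher p-values in FUSO and 4802 had lower ones. With all lists these were 2141 and 1780 of 11341.

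SRSF6 thus held a region of each kind. At its stop codon (chr20:42089399-42089968, plus strand, 570 nt, exon 6) the Control lists gave 2.5e-98 and 1e-125 and the FUSO lists 1e-178 and 1e-135. In its 5′UTR (chr20:42086504-42086654, 151 nt, exon 1) the Control lists gave 1e-17 and 6.3e-22 and the FUSO lists 1.6e-10 and 1.6e-12. The called peak in the 5′UTR was also shorter after treatment, at 151 nt in both Control lists against 61 nt in FUSO 1 and 91 nt in FUSO 2. At the stop codon the peak was 540 to 570 nt in every list. The GC content was 69.5% in the 5′UTR region and 43.3% in the stop codon region. The stop codon region held 7 DRACH matches and no GGAC, although 92.1% of regions of like length held one. A motif site of each is shown in the same way, at chr20:42086537-42086561 and chr20:42089691-42089715.
SRSF6, 5′UTR region: ttgtgtggctGGACtcggccgcccc
SRSF6, stop codon region: ttccagagatTAACTcagaactcct

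SRSF4, one of the largest SR proteins, had 3 regions, more than any other member. The stop codon region (chr1:29474250-29476643, minus strand, 1518 nt, exons 5 and 6) covered much of the stretch that encodes the arginine and serine tail. Its lowest p-values were 1.3e-54 and 6.3e-70 in Control and 5e-25 and 4e-28 in FUSO. These values cover unlike stretches, as FUSO 1 held 1 peak of 1429 nt and the other lists 2 peaks each. In those lists the 3′UTR peak had the opposite order, with 3.2e-11 in Control 1, 2.3e-09 in Control 2 and 1.6e-16 in FUSO 2. The called length did not separate the groups, with 1430 and 1340 nt in Control and 1429 and 1311 nt in FUSO. The region in exons 3 and 4 (chr1:29481236-29485907, 209 nt) was weak, with p-values of 5.6e-06 in Control 1, 0.0015 in Control 2 and 0.0002 in FUSO 1, and it was not called in FUSO 2. A 90 nt region in the 5′UTR (chr1:29508250-29508339) was called in Control 1 alone, at 5.1e-05.

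The lowest peak p-values of the family belonged to SRSF11 and SRSF5. In SRSF11, a more distant member with a single RNA recognition motif, a region of 7 exon blocks over exons 7 to 12 (chr1:70705136-70716549, plus strand, 838 nt) was listed with a p of 0 in all 4 lists, so no order could be read. It was 838 nt long in both Control lists, 808 nt in FUSO 1 and 748 nt in FUSO 2. This region held 19 DRACH matches, and 54 of its bases lay off the canonical exons. SRSF5 was covered by 1 region over all 8 exons of its canonical transcript (chr14:70233804-70238662, plus strand, 1616 nt), with 9 GGAC and 28 DRACH matches. Its lowest p-values were 1e-239 and 1e-183 in Control and 1e-200 and 1e-222 in FUSO, and the groups overlapped. The caller had cut it into 3 peaks in Control 1, 1 in Control 2, 1 in FUSO 1 and 2 in FUSO 2. Of its bases, 130 lay off the canonical exons.

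SRSF3, SRSF7 and SRSF11 each had a shared region at the 5′ end, and in each of them the p-values of the groups overlapped. SRSF3 and SRSF7 are known as adaptors that link splicing to mRNA export. For SRSF3 (chr6:36562090-36562240, plus strand, exon 1) they were 1.3e-12 and 7.9e-21 in Control and 6.3e-24 and 2e-18 in FUSO. For SRSF7 (chr2:38977272-38978516, minus strand, exons 1 and 2) they were 2e-21 and 2.3e-07 in Control and 7.9e-14 and 2.8e-05 in FUSO, so the replicates differed more than the groups. The SRSF11 region (chr1:70671365-70687294, plus strand, 360 nt) gave 2e-11 and 2.5e-16 in Control and 1.1e-07 and 1e-13 in FUSO, and 99 nt of it lay off the canonical exons.

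No region of SRSF2 or SRSF10 was called in more than 1 list. SRSF2, a nuclear speckle protein, was the most abundant SR mRNA, and its only peak was called in Control 2 alone, at 3.2e-06. That peak covered 120 nt of exon 1 coding sequence (chr17:74732895-74733014, minus strand) with 3 GGAC copies, shown in capitals because they lie together in a stretch of 77.5% GC. In regions of like length, 49.8% held at least 1 GGAC.
SRSF2, region in Control 2: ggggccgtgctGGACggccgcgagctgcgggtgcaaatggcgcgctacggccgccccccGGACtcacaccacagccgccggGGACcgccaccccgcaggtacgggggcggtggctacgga

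SRSF10, which turns into a general splicing repressor when its tail is dephosphorylated, had peaks after treatment only. One was called in FUSO 1 (chr1:24294194-24294404, minus strand, 211 nt, p 1.6e-05) and the other in FUSO 2 (chr1:24294074-24294164, 91 nt, p 0.005). Both lay in the 3′UTR, 29 nt apart, and as they did not touch, neither was counted as gained.

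**Figure D2:**
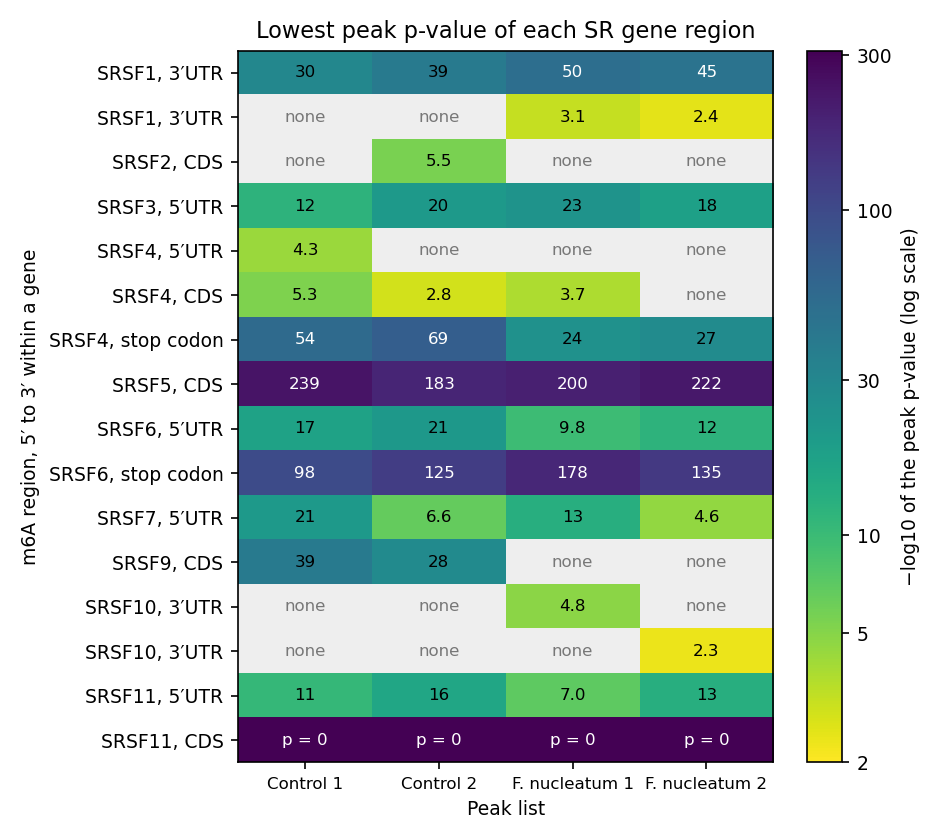
Strongest peak of each of the 16 regions in each of the 4 peak lists, as −log10 of the p-value of the peak caller (colour on a log scale, value printed in the cell); "none" marks a list with no peak, and the SRSF11 coding region, listed at 0 in every list, is drawn at the top of the scale. The SRSF9 region is called at 39 and 28 in the Control lists and not in the F. nucleatum (FUSO) lists, while the SRSF5 and SRSF11 coding regions have the lowest p-values in all 4 lists.

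The regions called in lists of only 1 group differed in position and base composition. This split was made after the values were seen. Of these regions, 4 were called in 1 list only, and no share over the whole series stands beside their position. The 3 regions called only in Control lists (SRSF9, SRSF2 and the SRSF4 5′UTR) had a GC content of 68.2% to 77.5%, with a median of 75.6%. The 3 regions called only in FUSO lists (SRSF1 and both of SRSF10) had 31.9% to 47.3%, with a median of 38.9%, and all were in 3′UTRs. Of the shared regions, those with lower p-values in FUSO had 38.6% (SRSF1) and 43.3% (SRSF6), and those with higher p-values 49.3% (SRSF4) and 69.5% (SRSF6). GC content moved the same way over the whole series, with a median of 58.8% over the 3369 regions called only in Control lists and 48.3% over the 3360 called only in FUSO lists. The part of base composition in the differences between the lists was not tested.

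The FUSO lists held more SR gene peaks in 3′UTRs than the Control lists, through the SRSF1 and SRSF10 peaks called only in FUSO lists. No share over all peaks of a list stands beside these shares, so a shift common to all genes cannot be told apart. The total number of SR gene peaks overlapped between groups. In all, there were 15 and 13 peaks in Control and 12 and 13 in FUSO. The means were 14 ± 1.41 and 12.5 ± 0.707 (SD, n = 2, exact two-sided permutation p of 0.667), and no comparison of 2 lists with 2 can give a p under 0.333. The peaks covered 5717 and 5805 nt in Control and 5837 and 5300 nt in FUSO (exact permutation p of 1). By the midpoint of the peak, 3′UTR peaks numbered 2 and 2 in Control and 3 and 4 in FUSO, or 13.3% and 15.4% against 25.0% and 30.8% of the peaks. That difference of 13.5 percentage points had the smallest p that the design allows (exact permutation p of 0.333). It shrank to 0.0794 percentage points when only peaks with a p of at most 1e-05 were counted, a limit at which the difference in the number of peaks was -3.5 instead of -1.5. Peaks in the coding sequence (CDS) numbered 5 and 6 in Control and 4 and 3 in FUSO, and the difference in their share was -11.5 percentage points, with 33.3% in a list of each group (exact permutation p of 0.667). Peaks in the 5′UTR numbered 6 and 4 in Control and 3 and 4 in FUSO, and the difference in their share was -7.5 percentage points (exact permutation p of 0.667). Peaks within 100 nt of the stop codon numbered 2 and 1 in Control and 2 and 2 in FUSO, or 13.3% and 7.69% against 16.7% and 15.4% of the peaks. That difference of 5.51 percentage points did not overlap between groups either (exact permutation p of 0.333). These peaks belonged to regions of SRSF4, SRSF5 and SRSF6 that all 4 lists held, and the class depended on how the caller cut them. SRSF4 counted only in FUSO 1, as 1 peak of 1429 nt, and SRSF5 only in Control 1 and FUSO 2. The stop codon difference was 9.80 points at a p of at most 1e-05. It was 0 when the start of the peak set the class, which also moved the CDS difference to -3.85 points. Single lists moved these differences as well. The CDS difference was -17.9 points without Control 1 and -5.13 without Control 2, the 5′UTR difference -2.88 and -12.1 points, the stop codon difference 8.33 and 2.69 points, and the difference in the number of peaks -0.5 and -2.5.

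None of the peaks lay on an internal exon that occurs only in NMD transcripts, the usual place of a poison exon. In GENCODE release 44, 7 of the 10 genes had such exons, 14 in all, among them 4 in SRSF4, 3 in SRSF11 and 2 each in SRSF3 and SRSF7. Of these 14 exons, 0 held a called peak. No share over the other genes of the series stands beside this count, so it cannot be read as a trait of the SR genes. The exon model that the peak caller searched is not given in the sources used here, so exons absent from that model could not have held a peak. Of the 10 SR genes, 7 (70%) had at least 1 peak in each of the 4 lists. The same was true of 68.7% of the 11088 genes that averaged 1 FPKM or more and of 53.8% of the 658 genes that averaged 100 FPKM or more.

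In mRNA, most SR genes were slightly lower in FUSO cells, and none passed the threshold of the test over all genes. SRSF1, SRSF2, SRSF3, SRSF4, SRSF5, SRSF6 and SRSF7 were lower in both FUSO libraries than in both Control libraries, SRSF10 was higher in both, and SRSF9 and SRSF11 overlapped. The 7 lower genes compare with 21.1% of all tested genes in that direction and the 1 higher gene with 26.1%. The median log2 fold change was -0.122 over the 10 genes and 0.014 over all 11088 genes tested. Of the 10, 0 passed a Benjamini-Hochberg adjusted limma p of 0.05 (0.803% of all tested genes passed). At an unadjusted p under 0.05, 5 were lower (6.45% of all tested genes) and 0 higher (7.04%).

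**Figure D3:**
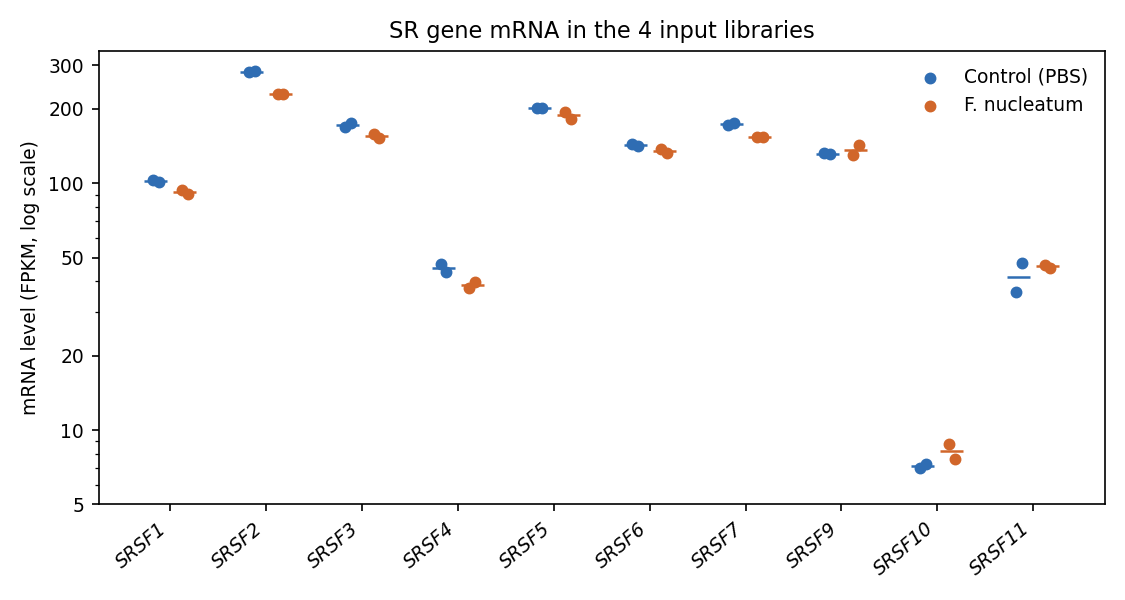
mRNA level of the 10 SR genes in FPKM (log scale) in the 4 input libraries; blue points are the 2 Control libraries, orange points the 2 F. nucleatum (FUSO) libraries and short lines the group means. SRSF2 shows the widest gap, with 281 and 286 FPKM in Control and 230 in both F. nucleatum libraries, and the 2 Control values of SRSF11 lie apart.

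The levels, which FPKM scale by transcript length, spanned from SRSF2 at the top to SRSF10 at the bottom. SRSF2 was first, SRSF5 the next, SRSF1 in place 7 and SRSF10 in place 10 in every library. SRSF3 and SRSF7 exchanged places 3 and 4 between libraries, SRSF6 and SRSF9 exchanged places 5 and 6 in FUSO 2, and SRSF4 and SRSF11 exchanged places 8 and 9 in Control 1. These 3 neighbouring pairs were thus not ordered beyond the spread of the libraries.

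SRSF2 had the largest difference of the family. It measured 281 and 286 FPKM in Control and 230 and 230 FPKM in FUSO, a difference in the mean of -18.8% (283 ± 4.19 against 230 ± 0.219, SD, n = 2). Its log2 fold change was -0.30 (95% interval -0.42 to -0.18), with a limma p of 0.001 and an adjusted p of 0.0957. The limma adjusted p was 0.0355 without Control 1 and 0.0357 without Control 2, fits in which the remaining Control library is assumed to vary like the FUSO libraries, and 0.675 without FUSO 1 and 0.623 without FUSO 2. With all libraries kept, the alternatives gave 0.0736 to 0.238. MFSD11, which lies on the other strand over 844 nt of the SRSF2 exons, measured 8.44 and 8.10 FPKM in Control and 7.52 and 8.54 FPKM in FUSO.

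The next largest differences were those of SRSF4, SRSF7, SRSF3 and SRSF1. SRSF4 measured 47.1 and 43.6 FPKM in Control and 37.6 and 39.8 FPKM in FUSO (log2 fold change -0.22, SE 0.0684, limma adjusted p 0.288). SRSF7 measured 172 and 175 FPKM against 154 and 154 FPKM (-0.17, SE 0.0485, limma adjusted p 0.270). In both genes the gap between groups exceeded that between replicates. SRSF3 measured 169 and 175 FPKM in Control against 158 and 152 FPKM in FUSO (-0.15, limma adjusted p 0.330). SRSF1 measured 103 and 101 FPKM against 94.3 and 90.4 FPKM (-0.15, limma adjusted p 0.347). SRSF3 has 5 annotated pseudogenes, SRSF6 has 2, and SRSF1, SRSF2, SRSF9 and SRSF10 have 1 each, whose reads the counting may have shared. Protein-coding genes without a symbol also span 5343 nt of the SRSF1 exons and 4195 nt of the SRSF6 exons on the same strand. Another spans 1888 nt of the SRSF2 exons on the other strand.

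SRSF5 and SRSF6 were lower by less. SRSF5 measured 202 and 201 FPKM in Control and 195 and 182 FPKM in FUSO (-0.10, limma adjusted p 0.494). SRSF6 measured 144 and 141 FPKM against 138 and 132 FPKM (-0.07, limma adjusted p 0.564). SRSF10 measured 7.04 and 7.27 FPKM in Control and 8.77 and 7.60 FPKM in FUSO (0.17, limma adjusted p 0.471). SRSF11 measured 36.2 and 47.5 FPKM in Control and 46.7 and 45.5 FPKM in FUSO (0.15, limma adjusted p 0.627). Control 1 alone set the sign of SRSF11, whose log2 fold change was -0.041 without it. Added up, the 10 genes gave 1294 and 1309 FPKM in Control and 1193 and 1177 FPKM in FUSO, a difference in the mean of -8.95% (1301 ± 10.4 against 1185 ± 11.4, SD, n = 2, exact permutation p of 0.333, the smallest possible).

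Genes that act on or with SR proteins were then read from the same fit. They were listed with earlier results of these data known, so their counts beside the shares over all genes are a description. CLK1, a nuclear kinase that phosphorylates SR proteins, rose, and TRA2B, an SR-like splicing activator, fell. Of 30 listed genes 29 were tested, and these were the only 2 with a limma adjusted p under 0.05 (0.803% of all tested genes passed). SRSF12, another SR gene, was at 0 in 3 libraries and at 0.0112 FPKM in FUSO 2. At an unadjusted limma p under 0.05, 5 of the 29 were lower and 2 higher, against 6.45% and 7.04% of all tested genes. Without overlap between groups, 14 were lower and 4 higher, against 21.1% and 26.1% of all tested genes. The median log2 fold change was -0.07, with a range from -0.50 to 0.61.

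CLK1 measured 19.8 and 18.7 FPKM in Control and 30.6 and 29.1 FPKM in FUSO. The change was 0.61 on the log2 scale with an SE of 0.0675 (limma adjusted p 0.0265), and both FUSO libraries were above both Control libraries. CLK4, the closest relative of CLK1, measured 4.49 and 4.47 FPKM in Control and 6.88 and 5.77 FPKM in FUSO (0.41, limma adjusted p 0.224). The other kinases of the family had log2 fold changes of -0.01 for CLK2 (limma adjusted p 0.980) and 0.12 for CLK3 (limma adjusted p 0.537). TRA2B measured 67.7 and 72.4 FPKM in Control and 49.9 and 48.9 FPKM in FUSO, and its change of -0.50 on the log2 scale had an SE of 0.0608 (limma adjusted p 0.038). Both calls were lost without either FUSO library, with limma adjusted p of 0.279 without FUSO 1 and 0.216 without FUSO 2 for CLK1, and of 0.347 and 0.369 for TRA2B. They were also lost with no filter on low values (0.0676 for CLK1 and 0.0818 for TRA2B) and in limma without trend (0.0575 and 0.103), and that of TRA2B after quantile normalization (limma adjusted p 0.0602) and with a replicate block (limma adjusted p 0.0513).

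Of the genes not called, BCLAF1, U2AF2 and CLK4 had the largest log2 fold changes. BCLAF1, a speckle-associated coactivator, measured 20.4 and 39.3 FPKM in Control and 20.6 and 20.7 FPKM in FUSO, so Control 2 alone was high (-0.44, limma adjusted p 0.524). Without Control 1 its log2 fold change was -0.90 (limma adjusted p 0.00487), and without Control 2 it was 0.018. U2AF2, the large subunit of the factor that marks the 3′ splice site, measured 92.9 and 77.8 FPKM against 65.8 and 71.2 FPKM (-0.31, limma adjusted p 0.299), and its call depended on the library left out. Its log2 fold change was -0.44 (limma adjusted p 0.0357) without Control 2, which leaves 1 Control library, and -0.18 (limma adjusted p 0.318) without Control 1, while the limma adjusted p was 0.821 without FUSO 1 and 0.689 without FUSO 2. YTHDC1, the m6A reader that binds SR proteins, measured 7.54 and 6.68 FPKM in Control and 6.31 and 6.01 FPKM in FUSO (-0.18, limma adjusted p 0.439).

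**Figure D4:**
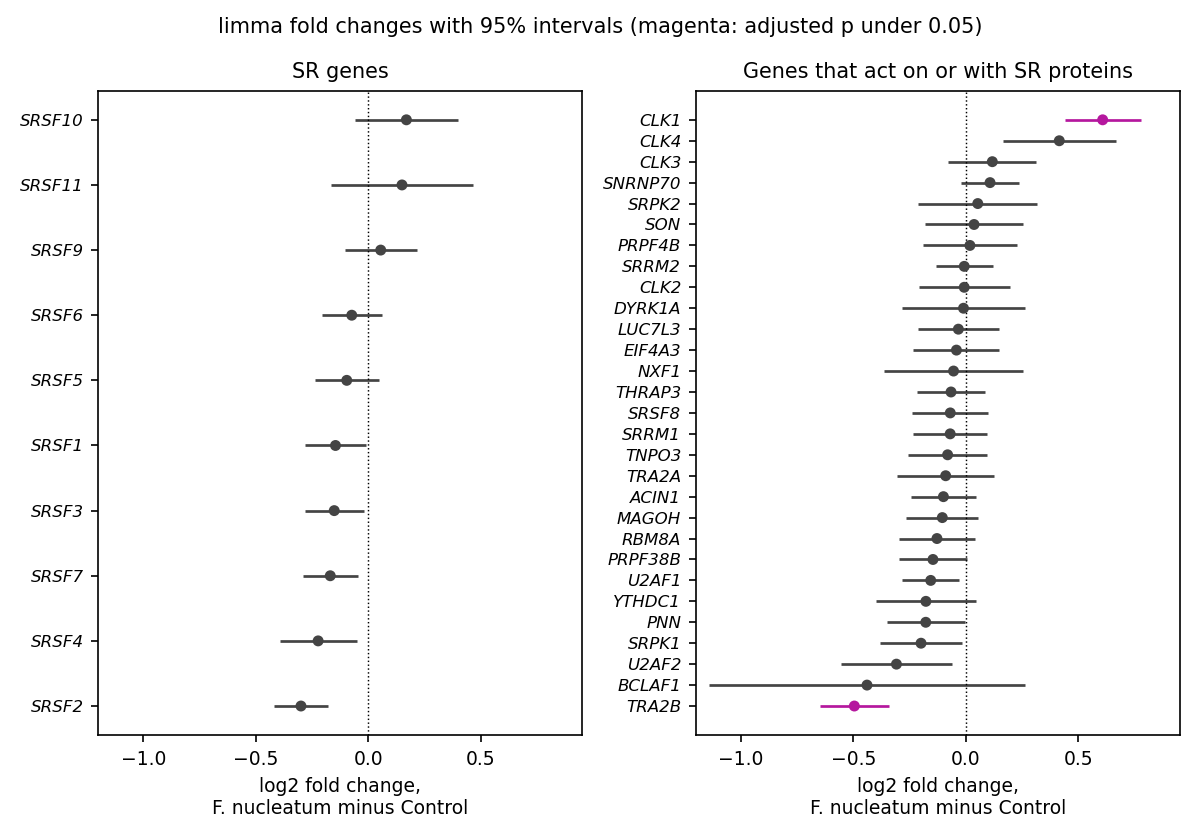
log2 fold change of mRNA, F. nucleatum (FUSO) minus Control, on the log2(FPKM + 1) scale, with 95% limma intervals, for the 10 SR genes (left) and the 29 tested genes that act on or with SR proteins (right); magenta marks an adjusted p under 0.05. All 10 SR genes lie between -0.30 and 0.17, and only CLK1 and TRA2B are marked.

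In m6A, 28 of these 30 genes had at least 1 region, against 83.9% of the genes that averaged 1 FPKM or more. They held 77 regions, of which 52 were in all 4 lists (51.5% of all regions in the series). There were 3 lost regions, in SRRM2, ACIN1 and EIF4A3 (2.64% of all regions), and 2 gained regions, in CLK4 and DYRK1A (2.38% of all regions). CLK1 and TRA2B each had 1 region, which all 4 lists held, and YTHDC1 had none.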

How the data were processed

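The deposited expression values were FPKM, computed by the authors with StringTie from the input libraries after alignment to hg19 (GRCh37); the submitters' processing notes name HISAT2 2.1.0 and Trim Galore 0.3.3. Each replicate had its own deposited peak list, 4 in all, with exon blocks and 1 value per peak, read here as the authors' uncorrected p-value. The methods name MACS2, but which program wrote the lists was not settled here. Neither file kind gives read counts, so a count model could not be used.

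FPKM were tested with limma 3.58.1 in R 4.3.3 (eBayes with trend, no covariate) on log2(FPKM + 1), a scale that understates the change of low genes, over the 11088 genes that averaged 1 FPKM or more, with Benjamini-Hochberg adjustment. All 10 SR genes passed this filter. Peaks sharing at least 1 bp of exon blocks on the same strand were merged (Python 3.11.15). Their midpoint on the GENCODE release 44 canonical transcript set the class, with transcript ends extended by 50 nt and a stop codon window of 100 nt on either side. Of the peaks whose name was in the annotation, 99.2% to 99.3% lay on that gene. Values per list were compared by exact two-sided permutation tests. Sequences were read from GRCh37, 12 bases on each side of the A of a motif.

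The SR genes and the 30 genes that act on or with them were chosen with earlier results of these data known. Named from the latter were those past the threshold, the 3 next by absolute fold change, YTHDC1 and the CLK genes. Same-numbered inputs did not deviate together (correlation across genes 0.0243), so the numbers were not taken to pair the samples. Alternatives were a pseudocount of 0.1, no filter, quantile normalization, a GC correction, no trend, a replicate block, a p limit of 1e-05, a reciprocal overlap of 50%, the class set by the start of the peak, covered bases in place of the number of peaks, and leaving out each library.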

Additional observations from a re-analysis of the deposited data

How the results depend on the processing

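Each of the 10 SR genes was refitted under 10 alternatives, and 96 of the 100 values kept their direction and their side of the threshold. As none of the 10 was called in the main fit, keeping the side meant staying uncalled. Leaving off the filter or the trend and adding a replicate block cannot change a fold change, so the direction was fixed there. The count of SR genes past the threshold ranged from 0 to 1 when single libraries were left out, the 1 being SRSF2. Their median log2 fold change was -0.098 after quantile normalization, -0.158 with a GC correction, and -0.159 to -0.081 when single libraries were left out. With 1 library left out, that of SRSF9 ranged from -0.013 to 0.12, SRSF11 from -0.041 to 0.34, CLK2 from -0.089 to 0.073 and BCLAF1 from -0.90 to 0.018. The same range was 0.076 to 0.26 for SRSF10, -0.15 to -0.045 for SRSF5, -0.11 to -0.043 for SRSF6, 0.048 to 0.19 for CLK3 and -0.25 to -0.10 for YTHDC1, none of them called in any of these fits. CLK2 was at 0.002 after quantile normalization. The count of 2 for genes acting on SR proteins was 0 with no filter, 0 without trend, 1 after quantile normalization, and 0 to 3 with a library left out. With a replicate block it was 1 (TRA2B at a limma adjusted p of 0.0513), and no other call of the named genes changed. Over all genes, 89 calls became 40 with no filter, 60 without trend, 90 with the block and 17 to 324 with a library left out. The cause was not tested.

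Leaving out single lists gave 1 to 2 lost regions and 1 to 2 gained regions, as fewer lists then had to meet the criterion. For the same reason, 3 to 4 shared regions had higher p-values in FUSO and 3 had lower ones. Over the whole series, leaving out single lists gave 945 to 2403 lost and 917 to 2403 gained regions. At a p of at most 1e-05 the SR genes had 0 gained regions (303 of 13480 regions in the series). At a reciprocal overlap of 50% all of these SR gene counts stayed as in the main setting. The unknown depth of the IP libraries limits every comparison of peak p-values, and 2 libraries in a group limit every test.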
